A study of Mus musculus with 9 samples.

Results

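The genes described here are 10 of the 13 protein genes of the mitochondrial genome, which all serve the respiratory chain. Their messenger RNAs were measured in RAW264.7, a mouse macrophage line of tumour origin. The rows were found by symbol, and all 10 listed genes (ND1, ND2, ND4, ND5, ND6, CYTB, COX1, COX2, COX3 and ATP6) were present among 12474 rows. Of the other protein genes, ATP8 and ND3 have no row under these symbols, and ND4L has one. Sums over the 10 genes leave these out. Every library came from wild-type RAW264.7 cells kept in DMEM with serum. The I group was polarized in the presence of potassium iodide (20 mM), with 100 ng/ml of lipopolysaccharide (LPS) and 50 ng/ml of mouse interferon gamma. The M1 group received the same doses of LPS and interferon gamma and no added iodide. The Mock group is labelled Mock, with no agent named. There were 3 libraries per group. The labels give neither the length of treatment nor the origin of the 3 libraries of a group. If they were not separate cultures, the p-values measure technical spread only. Without a group given another salt, the effect of iodide cannot be told apart from that of potassium or osmolarity.

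The mammalian mitochondrial genome is a small circle that is transcribed from both strands into long precursors, which are cut at the tRNAs between the genes. Its protein genes all encode membrane subunits of the respiratory chain, and the remaining subunits are encoded in the nucleus. The ND genes encode subunits of complex I, which oxidizes NADH. CYTB encodes cytochrome b of complex III, the COX genes encode the core of cytochrome c oxidase (complex IV), and ATP6 encodes part of the proton channel of ATP synthase (complex V). ND6 lies on the opposite strand from the other 9. Macrophages activated with LPS and interferon gamma are known for a shift from respiration to glycolysis.

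Of 12 macrophage markers examined all had a row, with a summed level of 2711 to 2841 FPKM in I, 3696 to 3828 in M1 and 4974 to 5046 in Mock. Lyz2, the lysozyme gene, carried that order, at 657 to 702 FPKM in I, 1114 to 1174 in M1 and 3111 to 3196 in Mock. Without Lyz2 the sum was 2054 to 2139 FPKM in I, 2582 to 2654 in M1 and 1820 to 1863 in Mock, so the order was not the same. Mertk was close to 0, at 0.28 to 0.30 FPKM in I, 0.021 to 0.052 in M1 and 0.011 to 0.053 in Mock. FPKM scales fragments by gene length and library depth, so levels of different genes are given per length. It makes no allowance for reads that match several places, which limits comparison for the genes with nuclear copies described below. Of the markers of T cells, B cells, neutrophils, fibroblasts and epithelial cells, Lck was at 3.29 to 5.26 FPKM over all libraries and Pax5 at 0.013 to 0.053, and the rest are not analysed here. The part of these marker differences in the results below was not tested. In bulk RNA, fewer mitochondria per cell and less RNA per mitochondrion cannot be told apart. The libraries were made from poly(A) RNA, so a change in the share of RNA captured cannot be told apart from these.

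Sequence bears on how far the 10 levels can be read. On mouse chromosome 1 the annotation holds 7 unprocessed pseudogenes side by side (GRCm38, chr1:24611535-24616197, minus strand) that copy a stretch of the mitochondrial genome running from within COX1 to within ND4. The copy Gm28661 matches COX2 over 681 of 684 bases with 0 mismatches. Gm10925 matches ATP6 over 678 of 681 bases, and Gm28437 matches COX3 over 783 of 784, each with 0 mismatches. Reads from such stretches have no single place of origin. The first 150 bases of COX2 are shown with those of its copy, where the letters do not differ at all. A stretch of CYTB is shown with its closest annotated copy, Gm11410, for contrast, and capitals mark the 10 bases that differ there. The sequences are from GENCODE vM21 transcripts on GRCm38, written 5′ to 3′ along the gene.
COX2 (MT, bases 7013 to 7162, plus strand): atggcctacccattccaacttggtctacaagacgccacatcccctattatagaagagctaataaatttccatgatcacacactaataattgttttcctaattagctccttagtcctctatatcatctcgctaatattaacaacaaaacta
Gm28661 (chr1:24615416-24615565, minus strand): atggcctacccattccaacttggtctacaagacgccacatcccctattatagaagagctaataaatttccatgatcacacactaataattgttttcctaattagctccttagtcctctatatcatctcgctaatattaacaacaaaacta
CYTB (MT, bases 14146 to 14295, plus strand): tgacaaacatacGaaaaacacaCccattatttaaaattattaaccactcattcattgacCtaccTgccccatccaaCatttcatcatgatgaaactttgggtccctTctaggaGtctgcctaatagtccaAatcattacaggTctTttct
Gm11410 (chr4:80003990-80004139, plus strand): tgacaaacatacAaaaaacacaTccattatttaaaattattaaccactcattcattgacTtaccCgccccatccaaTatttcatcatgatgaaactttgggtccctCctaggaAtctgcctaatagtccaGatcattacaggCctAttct

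To put this on a scale, each gene was split into overlapping windows of 100 bases, and the share of windows with an identical match in an annotated nuclear transcript was counted. The share was 99.5% for COX2 and for ATP6 and 99.9% for COX3. It was 60.8% for ND4 and 30.8% for COX1. The closest annotated copy of COX1, Gm13340 on chromosome 2, aligns with all 1545 bases with 37 mismatches. The last 483 bases of COX1 also match Gm29216 with 1 mismatch. The share was 3.2% for ND2 and 0% for ND1, ND5, ND6 and CYTB. Read length is not given in the sources used here, and 100 bases is a choice made for this count.

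**Figure D1:**
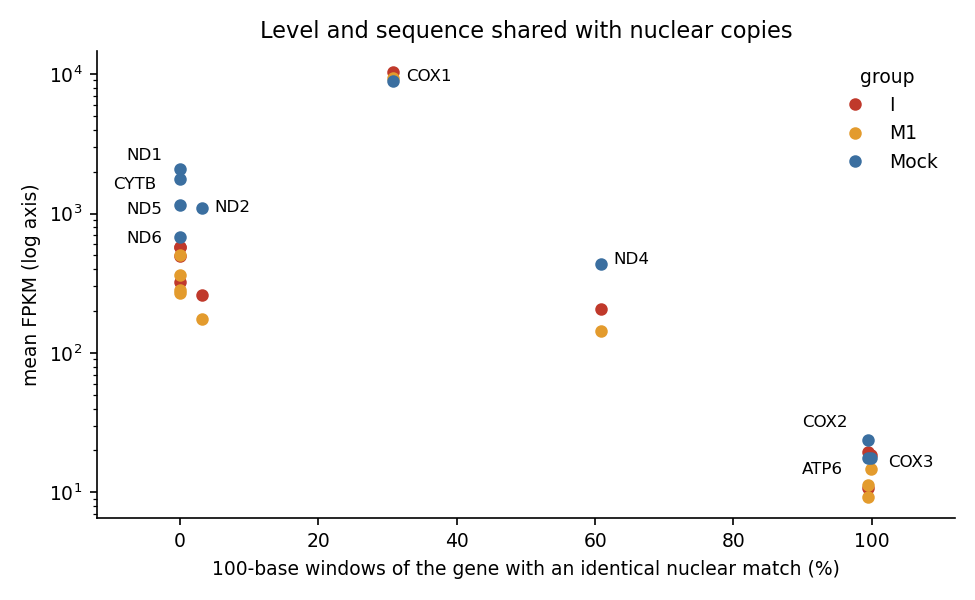
Mean FPKM (log axis) of each gene in I, M1 and Mock against the percentage of its 100-base windows with an identical nuclear match. COX2, COX3 and ATP6, at 99.5% to 99.9%, lie far below the other 7 genes in every group.

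The levels follow that division. COX2, COX3 and ATP6 were at 8.43 to 25.8 FPKM over all libraries, and the other 7 genes were at 133.7 to 10856 FPKM. COX1, COX2 and COX3 encode subunits of the same enzyme, and the COX1 row held 239805 to 351934 recovered fragments per library where the COX2 row held 137 to 402. The rows of COX2, COX3 and ATP6 are therefore uncertain, and their levels are not compared gene by gene with those of the others below. The counts, medians, shares and mean profile given for the 10 genes do include them. Whether the copies also affect the rows of COX1 and ND4 was not tested. ND4L, a further complex I gene that is not among the 10, has a match share of 98.5% and held 3 to 10 fragments in I, 5 to 7 in M1 and 13 to 19 in Mock.

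COX1 (MT 5328 to 6872) had the next to highest mean of all 12474 rows in I and in M1 and the highest in Mock. Among the 7 genes outside COX2, COX3 and ATP6, the order below COX1 in I was CYTB, ND5, ND1, ND6, ND2 and ND4, with CYTB and ND5 overlapping. In M1 it was ND5, CYTB, ND6, ND1, ND2 and ND4, with ND6 and ND1 overlapping. In Mock it was ND1, CYTB, ND5, ND2, ND6 and ND4, with ND5 and ND2 overlapping. By the rank of their means among all rows, ND1 (GRCm38, MT 2751 to 3707) stood at 74 in I, 175 in M1 and 5 in Mock, and ND5 at 61 in I, 75 in M1 and 13 in Mock. ND4 (MT 10167 to 11544) had the lowest mean of the 7 in every group, and the part of its nuclear copy, which shares 60.8% of its windows, in that place was not tested.

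**Figure D2:**
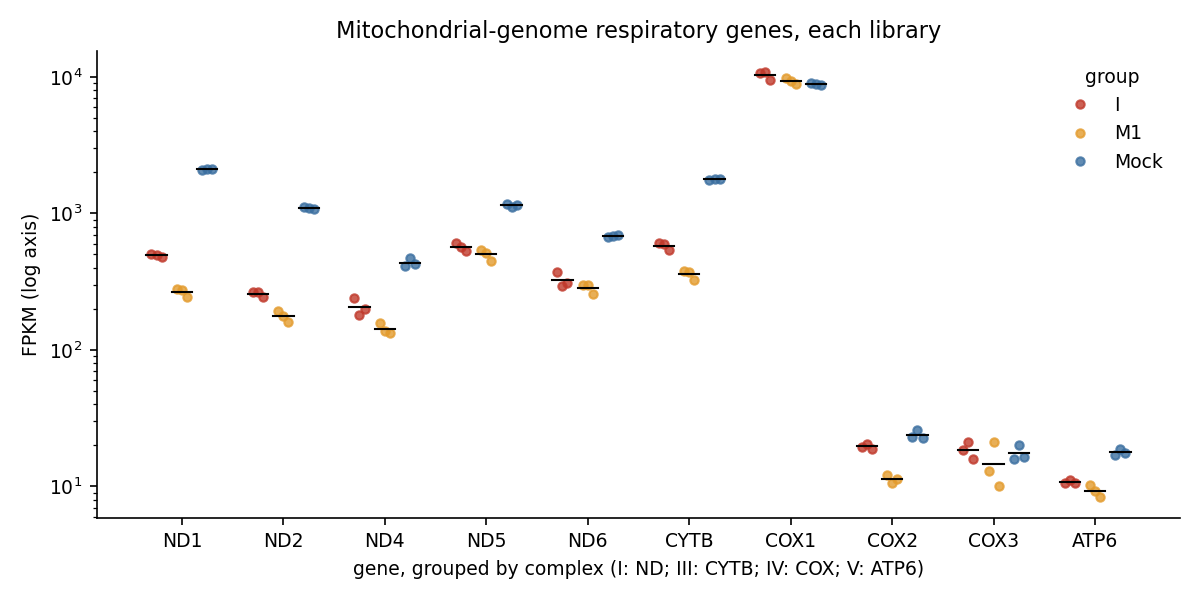
FPKM (log axis) of the 10 genes in each library, 3 points for each of I, M1 and Mock, with a black line at the group mean. The I and M1 points lie below the Mock points for ND1, ND2, ND4, ND5, ND6 and CYTB, while COX1 stays between 8776 and 10856 in all libraries.

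Most of these messenger RNAs were lower after polarization, by very different amounts. In M1 vs Mock, 8 of the 10 genes fell, 0 rose and 2 were not called (limma on log2(FPKM + 1), adjusted p under 0.05). The uncertain rows of COX2 and ATP6 are among the 8. Of all tested rows 85.8% were called in this comparison, 30.5% higher and 55.3% lower, so the count alone is not a result about these genes. As deposited the sizes were larger: 7 of the 10 fell by 1 or more on the log2 scale, which 16.1% of all tested rows did. That number depends on the scaling. With median-of-ratios (RLE) scaling ND5 (−0.88), ND6 (−0.94) and COX2 (−0.71) fell by less than 1, and the median of all tested rows was 0.019. The median log2 fold change was −1.22 over the 10 genes and −0.23 over all tested rows. Between M1 and Mock 8 of the 10 had groups that did not overlap, and so had 86.4% of all rows.

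Among the complex I genes ND1 fell furthest. ND1 had 281, 277 and 245 FPKM in M1, against 2087, 2103 and 2100.0 in Mock. Every M1 library was far below every Mock library, a 7.83-fold lower mean (log2 fold change −2.97 ± 0.046 SE, limma adjusted p = 5.02e-13). ND2 (MT 3914 to 4951) had 191.7, 177 and 159.8 FPKM in M1, against 1117, 1099 and 1070.2 in Mock. Its mean was 6.22-fold lower with no overlap (−2.63 ± 0.059 SE, limma adjusted p = 7.74e-12).

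The other complex I genes fell less. ND4 had 157, 138 and 134 FPKM in M1, against 412.0, 468 and 426 in Mock, a 3.05-fold lower mean without overlap (−1.60 ± 0.095 SE, limma adjusted p = 2.28e-08). ND5 (MT 11742 to 13565) had 540.4, 514 and 449.8 FPKM in M1, against 1173, 1114 and 1145 in Mock, and was 2.28-fold lower (−1.19 ± 0.065 SE, limma adjusted p = 1.13e-08). ND6 (MT 13552 to 14070, minus strand) had 299, 296 and 259 FPKM in M1, against 670.4, 679 and 693 in Mock. It was 2.39-fold lower (−1.26 ± 0.080 SE, limma adjusted p = 4.21e-08), and neither gene's groups overlapped. ND6 lies opposite the region just past ND5. Without known strand use, its reads cannot be told apart from those of an extended ND5 transcript. The libraries were made from poly(A) RNA, and how much ND6 messenger RNA that step captures was not tested. The ratio of ND6 to ND5 was 0.55, 0.58 and 0.58 in M1, against 0.57, 0.61 and 0.60 in Mock, which overlap (two-sided exact permutation p = 0.30).

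CYTB (MT 14145 to 15288) had 382, 369 and 327 FPKM in M1, against 1751, 1774 and 1794 in Mock. All M1 libraries lay below all Mock libraries, with a 4.93-fold lower mean (−2.30 ± 0.059 SE, limma adjusted p = 2.03e-11).

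COX1 did not follow. COX1 had 9852, 9381 and 8797 FPKM in M1, against 8943, 8904 and 8776 in Mock, and the groups overlap. Its log2 fold change was 0.073 ± 0.057 SE with a 95% interval of −0.054 to 0.20 (limma adjusted p = 0.252), so a fall of the size seen in ND1 or CYTB lies outside the interval under this scaling. At the same scaling, limma-voom on the recovered fragments called it higher (0.074, adjusted p = 0.0256). The direction for COX1 depends on the scaling. It was 0.39 and called higher with median-of-ratios (RLE) scaling (adjusted p = 0.000127), 0.28 and called higher with upper-quartile scaling, and −0.17 and called lower when libraries were scaled to the sum of nuclear rows. Quantile normalization gave −0.64, a value fixed by its rank, which was 2 in M1 and 1 in Mock. The ratio of COX1 to CYTB within a library does not depend on library scaling. It was 25.8, 25.4 and 26.9 in M1, against 5.11, 5.02 and 4.89 in Mock. COX1 over ND1 was 35.1, 33.9 and 35.9 in M1, against 4.29, 4.23 and 4.18 in Mock. Neither ratio overlaps between the groups, and 0.10 is the smallest p an exact permutation test of 3 against 3 can give (0.15 after adjustment over 9 such tests).

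The rows with near-complete nuclear copies gave mixed values. COX2 (MT 7013 to 7696) had 12.1, 10.6 and 11.3 FPKM in M1, against 23.1, 25.8 and 22.5 in Mock, without overlap (−1.01 ± 0.058 SE, limma adjusted p = 1.8e-08). ATP6 (MT 7927 to 8607) had 10.3, 9.27 and 8.43 FPKM in M1, against 17.0, 18.8 and 17.6 in Mock, also without overlap (−0.87 ± 0.062 SE, limma adjusted p = 1.24e-07). The ATP6 copy Gm10925 has a row of its own, with 18.5, 15.7 and 14.5 FPKM in M1, against 27.0, 34.0 and 30.04 in Mock (−0.86 ± 0.11 SE, limma adjusted p = 1.49e-05). The log2 fold changes of the gene and its copy were close in this comparison, but were 0.19 and 0.40 in I vs M1 and −0.67 and −0.46 in I vs Mock. ND4L and its copy Gm10222, at a few FPKM or less, gave −0.82 and −1.53 in M1 vs Mock, and −0.039 and 0.63 in I vs M1. Reads from the identical stretches of a gene and its copy cannot be told apart. COX3 (MT 8607 to 9390) had 13.0, 21.0 and 10.1 FPKM in M1, against 15.9, 20.2 and 16.5 in Mock. These overlap, and the change was not called (−0.29 ± 0.21 SE, 95% interval −0.75 to 0.16, limma adjusted p = 0.20). Without M1 replicate 2, the highest of the 3, COX3 was called lower (−0.57, limma adjusted p = 0.00322), as it was when scaled to nuclear rows (−0.52, adjusted p = 0.0295).

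**Figure D3:**
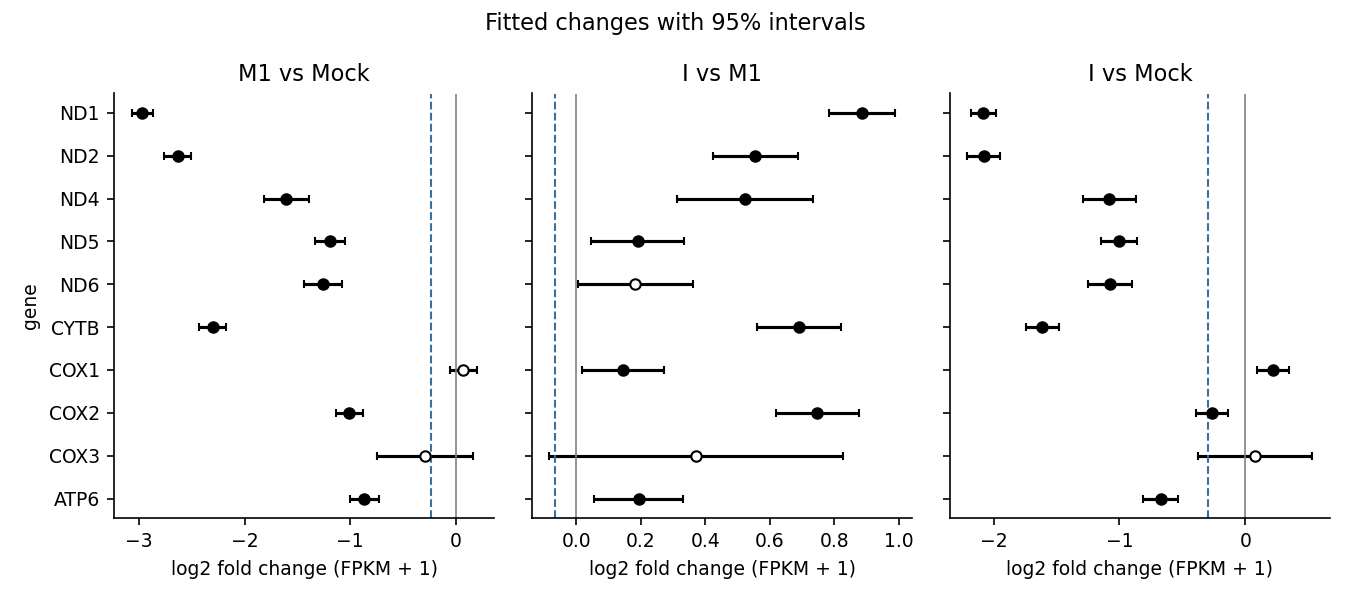
Log2 fold change on the log2(FPKM + 1) scale of the 10 genes in 3 panels (M1 vs Mock, then the iodide group against M1 and against Mock), with 95% intervals from limma. Filled points were called, open points were not, the solid line is 0 and the dashed line is the median of all tested rows. In M1 vs Mock the points spread from −2.97 (ND1) to 0.073 (COX1).

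Summed over the 10 genes, the share of all FPKM was 3.76%, 3.55% and 3.34% in M1, against 6.01%, 5.95% and 5.88% in Mock. COX1 made up 83.8% to 84.6% of that sum in M1 and 54.6% to 55.2% in Mock. The other 9 genes together held 0.51% to 0.60% of all FPKM in M1 and 2.67% to 2.70% in Mock. As a share of fragments, the 10 genes held 1.55% to 1.75% in M1 and 2.18% to 2.21% in Mock. These shares are descriptions and were not tested.

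**Figure D4:**
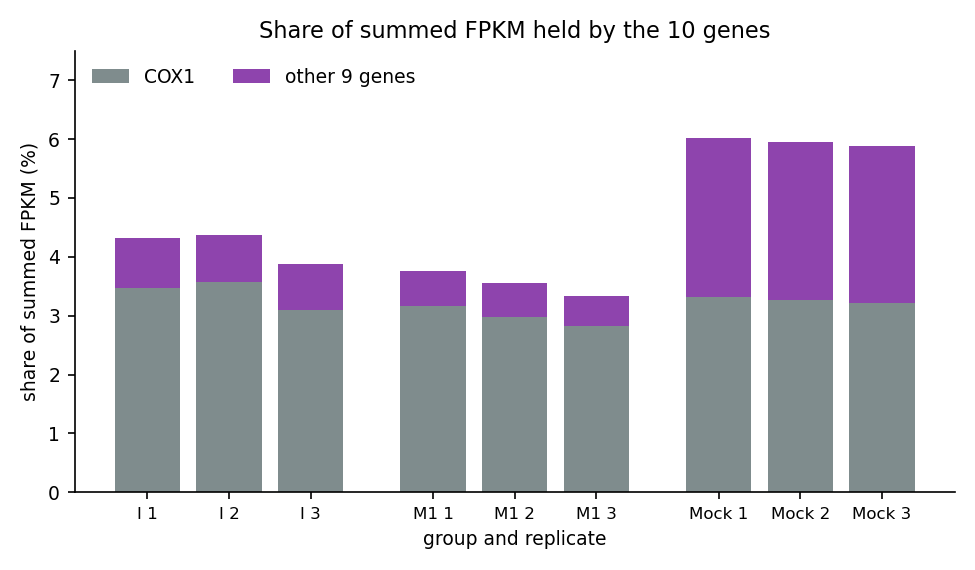
Share of the summed FPKM of all rows held by the 10 genes in each library of I, M1 and Mock, split into COX1 (grey) and the other 9 genes (purple). The COX1 part stays between 2.82% and 3.57%, while the other 9 genes range from 0.51% in M1 replicate 3 to 2.70% in Mock replicate 1.

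With potassium iodide during polarization most of these messenger RNAs were higher than with polarization alone. In I vs M1, 8 of the 10 genes rose, 0 fell and 2 were not called (limma, adjusted p under 0.05). The uncertain rows of COX2 and ATP6 are among the 8. Of all tested rows 64.2% were called, 24.9% higher and 39.3% lower. The median log2 fold change was 0.45 over the 10 genes and −0.07 over all tested rows. The groups did not overlap for 6 of the 10, against 67.2% of all rows. M1 replicate 3 was the lowest M1 library for 9 of the 10 genes, and without it 5 genes were called (ND1, ND2, ND4, CYTB and COX2). Both comparisons share the M1 libraries, so the values of the 10 genes in them are not independent.

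ND1 again moved most. It had 508, 495 and 480.2 FPKM in I, against 281, 277 and 245 in M1, which is 1.85-fold higher (0.89 ± 0.046 SE, limma adjusted p = 5.87e-08). CYTB had 609, 596 and 535 FPKM in I, against 382, 369 and 327 in M1, 1.61-fold higher (0.69 ± 0.059 SE, limma adjusted p = 2.51e-06). For both genes every I library lay above every M1 library. ND2 had 266, 267 and 243 FPKM in I, against 191.7, 177 and 159.8 in M1 (0.56 ± 0.059 SE, limma adjusted p = 1.31e-05). ND4 had 240.4, 180.3 and 198 FPKM in I, against 157, 138 and 134 in M1 (0.52 ± 0.095 SE, limma adjusted p = 0.000671). These groups did not overlap either. COX2, in its uncertain row, had 19.6, 20.5 and 18.9 FPKM in I, against 12.1, 10.6 and 11.3 in M1 (0.75 ± 0.058 SE, limma adjusted p = 1.31e-06).

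The remaining genes changed little. ND5 had 611, 571 and 532 FPKM in I, against 540.4, 514 and 449.8 in M1, which overlap (0.19 ± 0.065 SE, limma adjusted p = 0.0253). ND6 had 373, 294 and 307 FPKM in I, against 299, 296 and 259 in M1, which also overlap, and was not called (0.18 ± 0.080 SE, 95% interval 0.0062 to 0.36, limma adjusted p = 0.0656). It was called higher with RLE scaling (0.25, adjusted p = 0.0222) and under each of the other scalings tried. COX1 had 10707, 10856 and 9459.7 FPKM in I, against 9852, 9381 and 8797 in M1, again overlapping. Its rise was just past the threshold (0.15 ± 0.057 SE, limma adjusted p = 0.0452). The call was lost without the filter on low values (adjusted p = 0.0846), without the intensity trend (0.0559) and with only the 2 groups fitted (0.0796). It was also lost without M1 replicate 2 (0.0811) or 3 (0.17), without I replicate 1 (0.135) or 2 (0.146), and without any single Mock library (0.0596 to 0.063). Quantile normalization gave 0, a value fixed by its rank, which was 2 in I and in M1. The call of ND5 was lost without M1 replicate 3 (adjusted p = 0.0924) and without I replicate 1 (0.099) or 2 (0.0539).

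In the uncertain rows, ATP6 had 10.6, 11.2 and 10.6 FPKM in I, against 10.3, 9.27 and 8.43 in M1 (0.19 ± 0.062 SE, limma adjusted p = 0.0183), a call lost without M1 replicate 3 (adjusted p = 0.0702), without I replicate 2 (0.0608) and with limma-voom on fragments (0.139). Its copy Gm10925 had 19.3, 21.4 and 24.8 FPKM in I, against 18.5, 15.7 and 14.5 in M1 (0.40 ± 0.11 SE, limma adjusted p = 0.0068). COX3 had 18.6, 21.3 and 15.9 FPKM in I, against 13.0, 21.0 and 10.1 in M1, and was not called (0.37 ± 0.21 SE, limma adjusted p = 0.136). Without M1 replicate 2 it was called higher (0.65, limma adjusted p = 0.00278), as it was with limma-voom (0.36, adjusted p = 0.0294). The ratio of COX1 to CYTB was 17.6, 18.2 and 17.7 in I, against 25.8, 25.4 and 26.9 in M1, and COX1 over ND1 was 21.1, 21.9 and 19.7 in I, against 35.1, 33.9 and 35.9 in M1. These ratios did not overlap (two-sided exact permutation p = 0.10, the smallest possible), and both in I lay between those of M1 and Mock.

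Against Mock cells the iodide-treated cells were lower for most of the genes. In I vs Mock, 8 of the 10 genes fell, 1 rose and 1 was not called (limma, adjusted p under 0.05). The uncertain rows of COX2 and ATP6 are among the 8. Of all tested rows 86.8% were called, 28.2% higher and 58.6% lower. The groups did not overlap for 9 of the 10 genes and for 87.1% of all rows. As deposited 6 of the 10 fell by 1 or more on the log2 scale, against 18.0% of all rows. With RLE scaling ND4 (−0.70), ND5 (−0.62) and ND6 (−0.69) fell by less than 1. ND1 had 508, 495 and 480.2 FPKM in I, against 2087, 2103 and 2100.0 in Mock, 4.24-fold lower (−2.08 ± 0.046 SE, limma adjusted p = 5.57e-12). ND2 was 4.23-fold lower in I, at 259 ± 14 FPKM against 1095 ± 24 in Mock (SD, n = 3 each; −2.08 ± 0.059 SE, limma adjusted p = 3.96e-11). CYTB was 3.06-fold lower, at 580.0 ± 39 FPKM in I against 1773 ± 21 in Mock (SD, n = 3 each; −1.61 ± 0.059 SE, limma adjusted p = 3.06e-10). For these 3 genes no I library reached a Mock library.

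ND4, ND5 and ND6 had means 2.11-fold, 2.00-fold and 2.10-fold lower in I than in Mock (limma adjusted p = 7.03e-07, 4.85e-08 and 1.6e-07). The gene that rose was COX1, at 10341 ± 767 FPKM in I against 8875 ± 87 in Mock (SD, n = 3 each; 0.22 ± 0.057 SE, limma adjusted p = 0.00405). That rise was not called when libraries were scaled to the sum of nuclear rows (0.019, adjusted p = 0.745), and quantile normalization gave −0.64. ATP6 was lower in I (−0.67 ± 0.062 SE, limma adjusted p = 1.11e-06), as was COX2 (−0.26 ± 0.058 SE, limma adjusted p = 0.00134), and COX3 was not called (0.079 ± 0.21 SE, 95% interval −0.38 to 0.53, limma adjusted p = 0.727). The lower COX2 value was lost with RLE scaling, which turned it to 0.10 (adjusted p = 0.115), and with upper-quartile or quantile scaling. The 10 genes held 4.32%, 4.38% and 3.87% of all FPKM in I, against 6.01%, 5.95% and 5.88% in Mock.

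As deposited, the nuclear genes for the same complexes had other directions in M1 vs Mock and in I vs M1, but not in I vs Mock. For complexes I, III, IV and V, 75 nuclear genes were tested. Besides subunits they include Cycs (cytochrome c), Atpif1 (an inhibitor of ATP synthase) and Cox7a2l. In M1 vs Mock 42 of them rose, 11 fell and 22 were not called, with a median log2 fold change of 0.18 (−0.23 over all tested rows). That direction depends on the scaling, with 65 higher and 3 lower under RLE and 23 higher and 29 lower when scaled to the sum of nuclear rows. In I vs M1 62 of the 75 fell, 1 rose and 12 were not called, with a median of −0.35 (−0.07 over all tested rows). From 56 to 63 fell under the other scalings and models tried, of 75 genes tested, or of 73 with limma-voom. Fits that leave out a library were not counted here. Of all tested rows 39.3% were called lower in I vs M1. In I vs Mock 40 of the 75 fell, 18 rose and 17 were not called, with a median of −0.13 (−0.30 over all tested rows). Over all tested rows 58.6% fell and 28.2% rose, so this count is not a result about the list. With RLE scaling 41 rose and 18 fell in I vs Mock.

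Complex by complex, 10 of the 12 nuclear genes listed for complex IV, the enzyme of COX1, COX2 and COX3, rose in M1 vs Mock. Among these 12, 0 fell. Over all tested rows 30.5% rose and 55.3% fell. These counts depend on the scaling. When scaled to the sum of nuclear rows, M1 vs Mock gave 4 higher and 2 lower for complex IV, 14 and 12 for complex I, 3 and 5 for complex III, and 2 and 10 for complex V. Cox7a2l, a factor in joining complexes III and IV, was at 210.1 ± 6.3 FPKM in M1, against 94.3 ± 2.3 in Mock (SD, n = 3 each; limma adjusted p = 3.97e-11), and Cox8a at 319 ± 5.3 in M1, against 185 ± 8.8 in Mock (limma adjusted p = 5.36e-08). In I vs M1 11 of the 12 fell, among them Cox7c, at 24.8 ± 1.8 FPKM in I, against 41.0 ± 1.2 in M1 (SD, n = 3 each; limma adjusted p = 4.99e-05). Among 37 nuclear complex I genes 21 rose and 4 fell in M1 vs Mock, and 1 rose and 30 fell in I vs M1. Ndufs1, which carries iron-sulphur clusters, went against most, at 7.40 ± 0.15 FPKM in M1, against 15.3 ± 0.11 in Mock (limma adjusted p = 5.21e-09). Ndufs4 was at 33.0 ± 0.68 FPKM in M1, against 16.4 ± 0.47 in Mock (limma adjusted p = 1.91e-09).

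Of 10 nuclear complex III and cytochrome c genes, 6 rose and 2 fell in M1 vs Mock, and 0 rose and 8 fell in I vs M1. Uqcrh, the hinge subunit, was at 89.7 ± 2.6 FPKM in M1, against 51.9 ± 2.6 in Mock (SD, n = 3 each; limma adjusted p = 2.13e-07). Of 16 complex V genes tested, 5 rose and 5 fell in M1 vs Mock, and 0 rose and 13 fell in I vs M1. Atp5g2, a gene for the rotating ring of ATP synthase, was at 36.5 ± 0.42 FPKM in I, against 63.8 ± 1.1 in M1 (limma adjusted p = 4.3e-09). Complex II has no mitochondrially encoded subunit. Of its 4 genes, 2 rose and 1 fell in M1 vs Mock, and 0 rose and 3 fell in I vs M1, with Sdha lower in both, at 31.1 ± 0.68 FPKM in I, 39.8 ± 0.38 in M1 and 68.0 ± 1.2 in Mock.

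**Figure D5:**
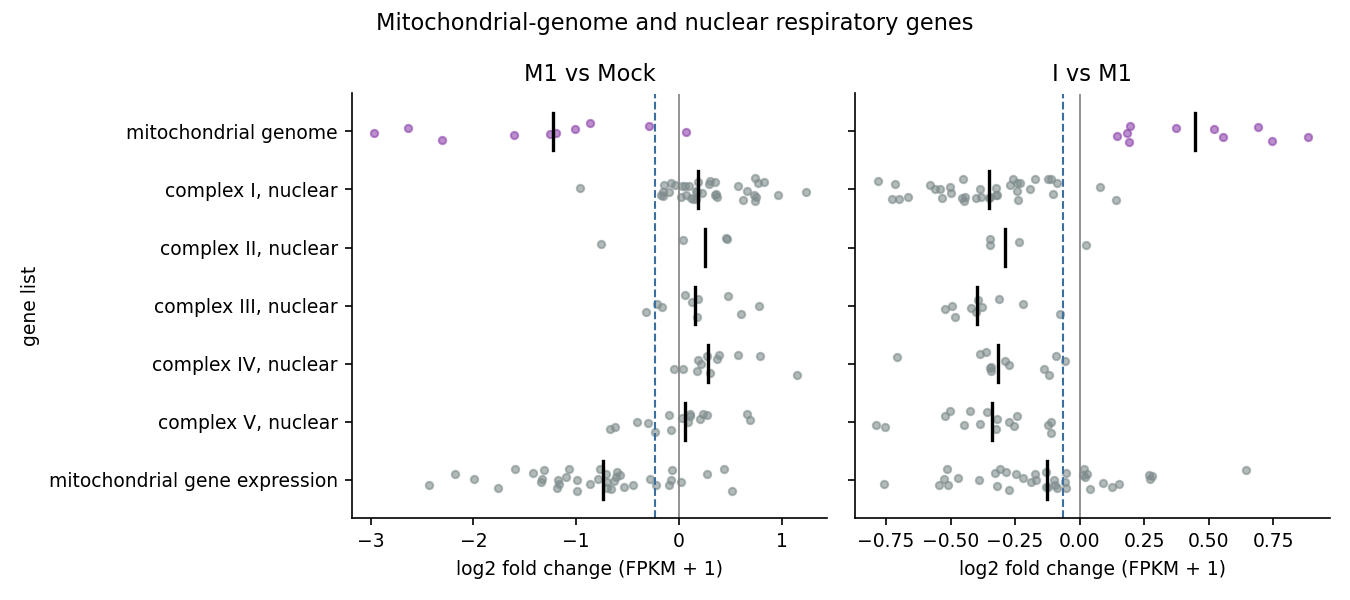
Log2 fold changes on the log2(FPKM + 1) scale in M1 vs Mock and in I vs M1 for the 10 mitochondrial-genome genes (purple) and for nuclear genes by list (grey), 1 point per gene, with a black line at the list median and a dashed line at the median of all tested rows. In I vs M1 the purple points are all above 0, and the medians of the nuclear genes of complexes I to V lie between −0.40 and −0.29.

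Most nuclear genes for reading the mitochondrial genome fell with polarization. Of 38 tested genes for its transcription, RNA processing, translation and DNA upkeep, 33 fell, 3 rose and 2 were not called in M1 vs Mock, with a median log2 fold change of −0.74. Over all tested rows 55.3% fell and 30.5% rose, with a median of −0.23. Lrpprc encodes an RNA-binding protein that stabilizes mitochondrial messenger RNAs. It was at 3.04 ± 0.18 FPKM in M1, against 20.8 ± 1.0 in Mock (SD, n = 3 each; −2.43 ± 0.050 SE, limma adjusted p = 4.14e-12). The mitochondrial RNA polymerase gene Polrmt was at 2.82 ± 0.080 FPKM in M1, against 7.62 ± 0.39 in Mock (−1.17 ± 0.051 SE, limma adjusted p = 1.47e-09). Tfam, which encodes the transcription and DNA-packaging factor, was at 5.09 ± 0.27 FPKM in M1, against 17.5 ± 0.46 in Mock (−1.60 ± 0.045 SE, limma adjusted p = 4.06e-11). The mitochondrial DNA helicase gene Twnk was at 0.85 ± 0.10 FPKM in M1, against 7.36 ± 0.090 in Mock, and Fastkd2, for a mitochondrial RNA-binding protein, at 1.00 ± 0.066 in M1, against 6.94 ± 0.15 in Mock.

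In I vs M1 this list was split, with 4 higher, 18 lower and 16 not called of 38, and a median of −0.13. Over all tested rows 24.9% were higher and 39.3% lower with a median of −0.07, so this count is not a result about the list. Neither Polrmt (0.12 ± 0.051 SE, limma adjusted p = 0.051), Tfam (−0.097 ± 0.045 SE, adjusted p = 0.08) nor Lrpprc (−0.10 ± 0.050 SE, adjusted p = 0.0994) was called. Twnk was at 1.89 ± 0.17 FPKM in I, against 0.85 ± 0.10 in M1 (SD, n = 3 each; limma adjusted p = 4.02e-06), and Tfb1m, for a methyltransferase of mitochondrial rRNA, at 0.94 ± 0.17 in I, against 2.27 ± 0.20 in M1 (limma adjusted p = 5.27e-06). In I vs Mock 31 of the 38 fell and 3 rose, where 58.6% of all tested rows fell and 28.2% rose. Of 8 regulators of mitochondrial biogenesis, 2 rose and 4 fell in M1 vs Mock, and as many in I vs M1, which is near the shares over all tested rows and no result about these genes. The coactivator gene Pprc1 was at 3.18 ± 0.075 FPKM in M1, against 16.0 ± 0.12 in Mock, and the nuclear receptor gene Esrra at 25.3 ± 1.4 in M1, against 11.9 ± 0.22 in Mock (limma adjusted p = 3.22e-12 and 7.45e-10). The RNA-binding partner of Lrpprc, Slirp, is not analysed here.

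The rows outside the mitochondrial genome that most resembled the mean profile of the 10 genes were ranked by Pearson r over the 9 libraries among 4372 rows with a mean of at least 10 FPKM. The 5 nearest were Slc39a6, Xbp1, Tmem185b, Rnmt and Pcna, with r between 0.994 and 0.996. The libraries fall into 3 groups, so r here reflects mostly the order of the group means. The mean profile is not shared by all 10 genes. COX1 had r of −0.48 to −0.37 with CYTB, ATP6 and the ND genes. COX3 had r of 0.27 to 0.45 with the other members. Slc39a6 was at 17.4 FPKM in I and 13.8 in M1, against 28.0 in Mock, and Xbp1 at 58.6 in I and 50.3 in M1, against 92.3 in Mock.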

How the data were processed

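Poly(A) RNA was sequenced in 9 libraries, 3 each for I, M1 and Mock. The deposited values are FPKM made by the authors, a unit no header names and that was inferred from the numbers. The submitters' processing notes list fastp 0.20.1, HISAT2 2.2.1, featureCounts 2.0.1, Subread and GRCm38. For the counting step, strand, the treatment of reads with several matches and the annotation used could not be read from the sources used here.

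From these files, gene lengths (RefSeq for the mitochondrial genome, GENCODE vM21 exons elsewhere, both GRCm38) gave library totals of 17431070 to 25470730 fragments, with 98.4% to 98.5% of values whole within 0.05 fragments. Limma 3.58.1 in R 4.3.3 was fitted to log2(FPKM + 1) over all 9 libraries, with a term per group, moderated variances and an intensity trend. Of 12474 rows, the 11156 with at least 0.5 FPKM in at least 3 libraries were tested, two-sided, with p-values adjusted over all of them (Benjamini-Hochberg) and a threshold of 0.05. No row in the files is at 0 in any library. Nuclear copies were sought with BLAST 2.17.0 among GENCODE transcripts. No genome sequence was used, so copies outside annotated transcripts were not searched for.

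The genes described here, the lists and the tests were chosen with earlier results of these data known. The rule for naming took the mitochondrial genome rows and, from each list, the up to 3 called genes with the largest change in M1 vs Mock and in I vs M1, besides Polrmt, Tfam, Lrpprc and Slirp. The text names part of these. Alternatives were the pseudocount, the filter, the scaling, the variance prior, the samples fitted, a replicate block, leaving out each library, and limma-voom on the recovered fragments, the last chosen after seeing the data. Same-numbered libraries of different groups had correlations of −0.12 to 0.047 in their deviations from the group means, so the numbers were not used as pairs.
The model was tested on simulated data before use, with 50 changed rows per size among 11156 in I vs M1. It recovered 50% of log2 changes of 0.25, 88% of 0.5, 98% of 1 and 100% of 2. Of 177 calls 9 were false. Far fewer rows were changed there than the 64.2% of tested rows called in I vs M1, so these shares may not carry over to the data.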

Additional observations from a re-analysis of the deposited data

How the results depend on the processing

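The number of the 10 genes called stayed at 8 to 10 for M1 vs Mock, 7 to 9 for I vs M1 and 8 to 9 for I vs Mock under the pseudocount, filter, scaling, variance prior, two-group fits and limma-voom. Leaving out each library in turn gave 8 to 9 for M1 vs Mock, 5 to 8 for I vs M1, with 5 without M1 replicate 3, and 9 to 9 for I vs Mock. COX1 turned to −0.64 in M1 vs Mock and in I vs Mock with quantile normalization, and to −0.17 in M1 vs Mock when scaled to the sum of nuclear rows. COX3 turned to 0.0023 in M1 vs Mock with RLE, and in I vs Mock to −0.11 when scaled to nuclear rows and −0.019 without I replicate 2, with −0.019 to 0.18 over all single libraries left out. COX2 turned to 0.10 in I vs Mock with RLE. The cause was not tested. The replicate block gave 9, 9 and 9 called genes. The added genes were COX3 in M1 vs Mock (adjusted p = 0.0408) and in I vs M1 (adjusted p = 0.0213). Over all tested rows, libraries of different groups matched best by their own number in 2, 1 and 1 of 3 cases, which is no sign of pairing. COX3 alone was highest in replicate 2 of every group, at 21.3 FPKM in I, 21.0 in M1 and 20.2 in Mock. Whether this reflects pairing was not tested. The share of summed FPKM, 4.19% in I, 3.55% in M1 and 5.95% in Mock, became 4.88%, 4.09% and 6.40% without the 10 highest nuclear rows, and 4.10% to 4.35%, 3.45% to 3.66% and 5.92% to 5.98% leaving out a library. Over all rows in I vs Mock, 3146 were higher as deposited and 4783 with RLE. Median shifts of all rows in M1 vs Mock were −0.23 as deposited, 0.019 with RLE and −0.43 when scaled to nuclear rows. The lowest row, ATP6 in M1 replicate 3, rests on 102 fragments.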
